A study of Mus musculus with 24 samples.

Results

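The expression of 10 genes of the JAK-STAT signalling pathway was followed in neutrophil preparations of mouse liver and blood, from untreated mice and from mice given nanoparticles. They are the SOCS family genes Socs1, Socs2, Socs3 and Cish, the kinase genes Jak1, Jak2 and Jak3, and the transcription factor genes Stat3, Stat5a and Stat5b. The rule that picked their rows uses gene symbols alone, while the members themselves were chosen with earlier results of these data known. All 10 members were found once in each of 2 deposited raw count tables, of 18474 and 22505 gene rows, and all 10 passed the filter on low counts in both tables. Levels are CPM, read counts brought to one common library total, scaled by the trimmed mean of M values (TMM) within each table.

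The mice were of the strain labelled NOD.C3C4, which was the same in every group, and all libraries carry the cell type label Neutrophils. Treatment was 10 intravenous doses of PDC166-NP, nanoparticles coated with the molecule labelled PDC166, a peptide-MHC complex per the study's design text. The first table holds 9 libraries: 3 of untreated blood, 2 of treated blood (numbered 2 and 3), 2 of untreated liver and 2 of treated liver. The second holds 15 libraries of liver neutrophils from mice given PDC166-NP together with an antibody, so its control group is treated as well. These groups are isotype (3), anti-GCF (3), anti-IL21R (3), anti-TGFb (2), anti-IL35 (2) and anti-IL10 (2). The abbreviation GCF is not spelled out in the labels and is used as given. The labels do not say whether replicates came from separate mice or pools, and the p-values therefore reflect only how much these libraries vary, which may be technical. The library names of untreated and treated samples carry separate number ranges, and any processing step that followed those numbers cannot be told apart from the treatment. The tables were scaled separately, so no level was tested across them.

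In this pathway a cytokine brings its receptor chains together, receptor-bound JAK kinases phosphorylate the receptor and STAT proteins, and STAT dimers enter the nucleus to drive transcription. SOCS proteins are induced by STATs and turn the signal off again. SOCS3 binds gp130 and the G-CSF receptor and limits STAT3, while CIS (the product of Cish) and SOCS2 are classic STAT5 targets that act on receptors of the growth hormone, GM-CSF and interleukin-2 type. SOCS1 chiefly limits interferon and JAK signalling. G-CSF and STAT3 govern neutrophil production and release, and the growth hormone receptor with STAT5 is a main driver of Socs2 and Cish in hepatocytes.

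The libraries differed in how far they matched the neutrophil label. Summed CPM of 18 neutrophil markers was 34070 and 37440 in untreated liver against 223300 and 225400 in treated liver, 118500 to 291100 in untreated blood and 94750 and 97810 in treated blood. Summed CPM of 18 hepatocyte markers was 17470 and 23710 in untreated liver, 276 and 299 in treated liver and 315 to 546 in blood. In the antibody table neutrophil markers summed to 185400 to 228900 CPM with isotype, and to 23080 to 34600 with anti-GCF, where 13 Kupffer cell and macrophage markers summed to 7140 to 12830 CPM against 405 to 925 with isotype. The second anti-IL35 library stood apart from the first. Its macrophage sum was 3470 CPM against 530, and its Socs3 level 1094 CPM against 120. Untreated blood replicate 3 had 291100 CPM of neutrophil markers against 118500 and 145000 in the other two. In bulk RNA, fewer cells of a type and less RNA per cell cannot be told apart. Library totals ran from 34724353 to 46384502 counts in the blood and liver table and from 23559681 to 47469935 counts in the antibody table.

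The genes lie on 7 chromosomes of mm10. A cluster of 3 lies on chromosome 11, where Stat5b (chr11:100780731-100850724, minus strand), Stat5a (chr11:100859351-100885169, plus strand) and Stat3 (chr11:100885098-100939540, minus strand) follow each other in the GENCODE M21 annotation, and the ends of Stat5a and Stat3 share 72 bases on opposite strands. Socs3 lies farther along it (chr11:117966079-117970047, minus strand). The others are Socs1 (chr16:10782240-10785536, minus), Socs2 (chr10:95385362-95417180, minus), Cish (chr9:107296026-107302784, plus), Jak1 (chr4:101152367-101265282, minus), Jak2 (chr19:29251828-29313080, plus) and Jak3 (chr8:71676296-71690575, plus). Cish overlaps the opposite-strand genes Gm17040 by 1167 bases and Gm17041 by 1459 bases, and Jak3 shares its last 1362 bases with Insl3 on the same strand. The strand setting of the counting is not given in the sources used here, so reads in these overlaps cannot be assigned to one gene with certainty. Stat5a and Stat5b are near-identical paralogs, and how reads that match both were divided is not stated either.

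Promoters were read from RefSeq (GRCm38.p6, from 250 bases before to 50 bases after each annotated start). An entry was found for 9 of the 10 members, with 2 each for Stat5a and Stat5b, and none for Socs2. The STAT dimer motif TTCNNNGAA, which reads the same on both strands, was present in 2 of these 9 genes, Socs3 and Cish, and in 2726 of all 32851 promoters (8.3%). The pair is shown because both genes are textbook STAT targets and carry several of the changes described here. Capitals mark the matches. In Socs3 the match TTCTTAGAA begins 154 bases before the RefSeq start. In Cish the matches TTCCTGGAA and TTCTTGGAA begin at bases 1 and 12 of the RefSeq transcript. Both promoter stretches lie inside the GENCODE spans of these genes given above, which begin farther upstream than the RefSeq starts. At least 2 matches were found in 150 promoters (0.457%). A match is a description of the letters and was not tested for binding.
Socs3 promoter (chr11:117969317-117969616, minus strand): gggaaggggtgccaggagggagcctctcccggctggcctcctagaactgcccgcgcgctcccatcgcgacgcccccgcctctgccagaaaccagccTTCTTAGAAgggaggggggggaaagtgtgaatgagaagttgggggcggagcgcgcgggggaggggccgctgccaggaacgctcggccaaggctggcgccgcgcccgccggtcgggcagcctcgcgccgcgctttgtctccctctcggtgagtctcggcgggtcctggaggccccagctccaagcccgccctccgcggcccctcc
Cish promoter (chr9:107296409-107296708, plus strand): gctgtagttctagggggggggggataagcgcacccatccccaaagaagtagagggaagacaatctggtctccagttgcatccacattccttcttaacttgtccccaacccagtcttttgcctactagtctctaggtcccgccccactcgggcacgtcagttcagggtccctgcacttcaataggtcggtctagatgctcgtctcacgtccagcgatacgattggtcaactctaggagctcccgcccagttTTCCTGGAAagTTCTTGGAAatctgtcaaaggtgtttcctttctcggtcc

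The plot of fold changes gives every member in every comparison. Of 10 members, 6 were called with treatment in liver, 6 with treatment in blood, 5 between treated liver and treated blood and 9 between untreated liver and untreated blood. A call is an adjusted p below 0.05 in edgeR's quasi-likelihood test over all genes of the table. The share of all tested genes called was 64.1% for treated against untreated liver, 33.6% for treated against untreated blood, 21.3% for treated liver against treated blood and 64.3% for untreated liver against untreated blood. In treated against untreated liver the members were thus called about as often as genes at large. Against isotype, 5 members were called with anti-GCF (57.8% of all genes), 3 with anti-TGFb (27.6%), 3 with anti-IL10 (17.6%), 2 with anti-IL35 (9.33%) and 0 with anti-IL21R (2.23%). At an unadjusted p under 0.05 anti-IL21R gave 2 members, and DESeq2 called 1 of them, Cish. By direction, 4 members rose and 2 fell in treated against untreated liver, where 27.8% and 36.3% of all genes did. The numbers were 3 and 3 in treated against untreated blood (17.4% and 16.2%), 0 and 5 in treated liver against treated blood (9.71% and 11.6%) and 2 and 7 in untreated liver against untreated blood (35.6% and 28.7%). They were 3 and 2 with anti-GCF (31.6% and 26.3%), 3 and 0 with anti-TGFb (17.5% and 10%), 3 and 0 with anti-IL10 (10.6% and 6.98%) and 2 and 0 with anti-IL35 (4.81% and 4.51%), and anti-IL21R called 1.08% of all genes higher and 1.15% lower. Groups whose CPM did not overlap were common among all genes. They held for 10 members in treated against untreated liver (86.3% of all genes), 9 in treated against untreated blood (61.1%), 7 in treated liver against treated blood (76%) and 9 in untreated liver against untreated blood (73.4%). Against isotype they held for 5 with anti-GCF (66.8%), 6 with anti-TGFb (59.2%), 6 with anti-IL10 (48.7%), 3 with anti-IL35 (33.6%) and 2 with anti-IL21R (25.5%), so a lack of overlap is given below only as a description. Socs2 was called in 8 of the 10 comparisons of this plot, Cish in 7, Socs1, Socs3 and Jak3 in 5, Jak1, Jak2 and Stat5b in 4, Stat3 in 3 and Stat5a in 0.

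**Figure D1:**
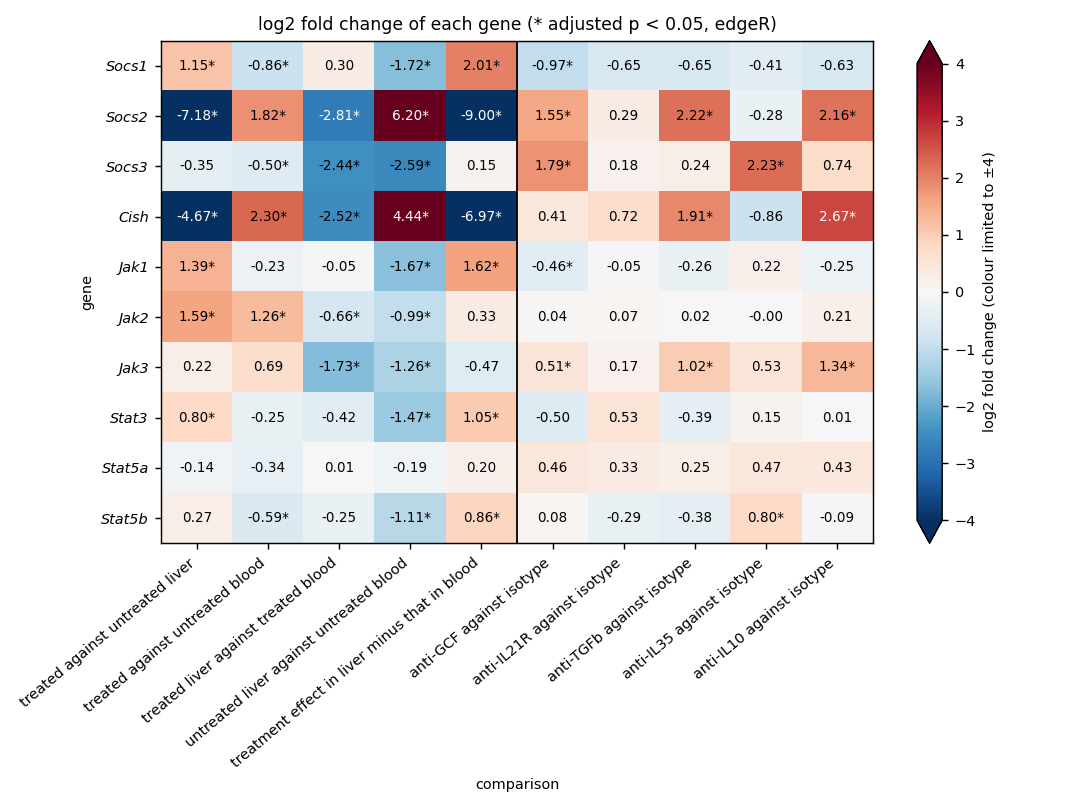
Log2 fold change of each of the 10 genes (rows) in each of 10 comparisons (columns), in edgeR fits of the 9-library table (left of the line) and of the 15-library antibody table (right). The colour scale ends at 4 in both directions, an asterisk marks an adjusted p below 0.05, and the rows of Socs2 and Cish hold the strongest values in both directions, down to -9.00 and -6.97 for the difference of the treatment effect between tissues.

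In the blood and liver table the median log2 fold change of all genes between treated and untreated liver was -0.29 with TMM scaling and -0.02 with upper-quartile scaling. It was 0.10 and -0.12 between untreated liver and untreated blood, and -0.30 and -0.09 for the difference of the treatment effects. Relative to the median of all genes, the 6 called members moved by 1.88 (Jak2), 1.69 (Jak1), 1.44 (Socs1), 1.09 (Stat3), -4.38 (Cish) and -6.89 (Socs2) on the log2 scale. None of these 6 changed direction under any scaling tried. The other scalings moved a library by only -0.26 to 0.09 log2, so they could not reverse changes of this size. The values below are given as fitted, without this shift.

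Socs2 and Cish, the SOCS genes tied to STAT5, were high in untreated liver and low in treated liver, and rose in treated blood. Socs2 was at 34.4 and 67.6 CPM in untreated liver and at 0.238 and 0.448 CPM in treated liver, from 1498 and 2939 counts down to 9 and 20. The groups were far apart, and the log2 fold change was -7.18 ± 0.67 (SE, edgeR adjusted p = 2.02e-05). Cish was at 21.0 and 60.7 CPM in untreated liver and at 1.66 and 1.55 CPM in treated liver, a log2 fold change of -4.67 ± 0.48 (edgeR adjusted p = 3.5e-05). In both genes the second untreated library was above the first, and both stood well above the treated libraries.

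The hepatocyte marker sum fell in the same step from 17470 and 23710 to 276 and 299 CPM, and all 18 of its markers were called lower. Ghr, the growth hormone receptor, fell from 245 and 341 CPM to 0.898 and 0.672 CPM, and Prlr, the prolactin receptor, had means of 22.5 and 0.206 CPM. No hepatocyte marker of the list was at 0 in either treated liver library. The part of these markers in the Socs2 and Cish values was not tested.

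In blood the direction was the opposite. Socs2 was at 0.440, 1.27 and 0.289 CPM in untreated blood and at 2.25 and 2.64 CPM in treated blood, so that the groups did not overlap (log2 fold change 1.82 ± 0.52, edgeR adjusted p = 0.0249). This call was lost without untreated blood replicate 1 or either treated blood library, with values of 1.52 to 2.70 over the alternatives and adjusted p up to 0.124. Cish rose from 2.23, 1.55 and 1.86 CPM to 8.67 and 9.82 CPM, a log2 fold change of 2.30 ± 0.39 (edgeR adjusted p = 0.00286) that was called under every alternative. Summed CPM of 15 T and NK cell markers was 207 to 365 in untreated and 581 and 582 in treated blood, with 9 of the 15 called higher and 1 lower. The one that fell was Cd3d, which encodes a CD3 subunit of T cells, at 154 to 255 CPM untreated and 34.8 and 35.5 CPM treated. Il2rb, a receptor chain that signals through STAT5, rose from a mean of 12.4 to 73.7 CPM. Platelet markers summed to 435 to 828 CPM in untreated and 2064 and 2026 CPM in treated blood, with 9 of 9 called higher. Erythroid markers summed to 31.8 to 229.8 CPM and to 3307 and 440.5 CPM, with 7 of 9 called higher. The part of RNA from any of these cells in the blood values was not tested.

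The difference between the tissues was itself tested by the interaction term, for which 54.7% of all genes and 6 members were called. The liver effect less the blood effect was -9.00 ± 0.83 log2 for Socs2 (edgeR adjusted p = 4.45e-05) and -6.97 ± 0.62 for Cish (edgeR adjusted p = 3.73e-05). In both genes the liver effect was negative and the blood effect positive. Treated liver ended below treated blood, by 2.81 ± 0.63 log2 for Socs2 and by 2.53 ± 0.45 for Cish (edgeR adjusted p = 0.0123 and 0.00436). The Socs2 call of this last comparison was lost without either treated liver library or treated blood replicate 3.

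In the antibody table both genes rose with anti-TGFb and with anti-IL10. Socs2 was at 1.34, 1.49 and 1.86 CPM with isotype, at 6.92 and 7.63 CPM with anti-TGFb and at 7.84 and 6.19 CPM with anti-IL10. Neither group overlapped isotype, and they overlapped each other. The log2 fold changes were 2.22 ± 0.24 with anti-TGFb and 2.16 ± 0.24 with anti-IL10 (edgeR adjusted p = 7.05e-05 and 0.00019). Cish was at 4.96, 5.89 and 4.88 CPM with isotype, at 19.1 and 20.5 CPM with anti-TGFb and at 37.8 and 28.9 CPM with anti-IL10. The anti-IL10 libraries were the highest of the 15, and the anti-TGFb libraries came next, apart from both neighbours. The log2 fold changes of Cish were 1.91 ± 0.24 and 2.67 ± 0.24 (edgeR adjusted p = 0.000142 and 4.14e-05). All 4 calls were made under every alternative. The 2 comparisons share the 3 isotype libraries.

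With anti-GCF Socs2 was called and Cish was not, and the difference between the genes was not tested. Socs2 rose to 3.43, 4.96 and 5.35 CPM, a log2 fold change of 1.55 ± 0.23 (edgeR adjusted p = 7.15e-05), called under every alternative. Cish was at 5.89, 9.59 and 5.42 CPM, overlapping isotype, with a log2 fold change of 0.41 ± 0.22 (edgeR adjusted p = 0.119). With anti-IL21R Cish was at 7.42, 10.19 and 8.33 CPM, above every isotype library, but its log2 fold change of 0.72 ± 0.22 did not pass (edgeR adjusted p = 0.081). With anti-IL35 it was lowest, at 2.82 and 2.96 CPM, below every isotype library. Its log2 fold change of -0.86 ± 0.26 had an edgeR adjusted p of 0.05 after rounding, just short of a call, and it was called under 4 alternatives (RLE scaling, upper-quartile scaling, DESeq2 and a fit without anti-GCF).

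**Figure D2:**
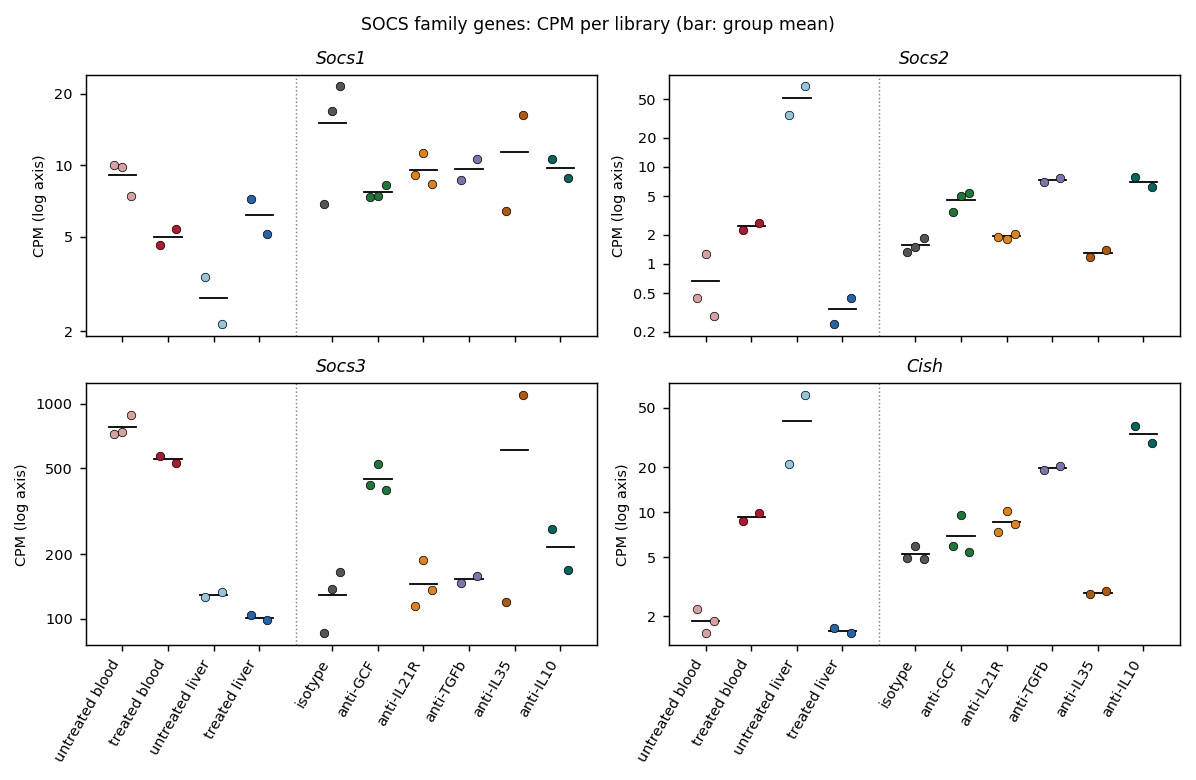
CPM of the 4 SOCS family genes in each of the 24 libraries (points, log axis) with group means (bars), the 9-library table left of the dotted line and the antibody table right of it. Untreated liver is highest for Socs2 and Cish (up to 67.6 and 60.7 CPM), the blood groups stand above the liver groups of their table for Socs3 (533 to 885 CPM), and 1 of the 2 anti-IL35 libraries reaches 1094 CPM of Socs3.

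T and NK cell markers rose with anti-TGFb and anti-IL10, where Cish and Socs2 rose, but not with anti-GCF, where Socs2 rose as well. Their summed CPM was 287 to 426 with isotype, 923 and 976 with anti-TGFb and 758 and 762 with anti-IL10, with 13 and 12 of 15 markers called higher and 0 and 1 lower. With anti-GCF the sum was 152 to 199.6 CPM, below every isotype library, with 2 markers called higher and 2 lower. The lower sum thus does not show a common fall of these markers. Such a sum can rest mainly on a few genes, as it did on Cd3d in untreated blood. Il2rb was at 8.30 to 16.8 CPM with isotype, at 129 and 133 CPM with anti-TGFb and at 134 and 128 CPM with anti-IL10. Ifng, a T and NK cell cytokine, had means of 4.10, 33.6 and 18.6 CPM in these groups. Hepatocyte markers summed to 125 to 416 CPM with isotype, 712 and 853 CPM with anti-TGFb (9 of 18 called higher) and 436 and 467 CPM with anti-IL10 (3 of 18). Neutrophil markers summed to 110000 and 115800 CPM with anti-TGFb and to 57190 and 132600 CPM with anti-IL10, below every isotype library. The part of these markers in the Socs2 and Cish values was not tested.

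**Figure D3:**
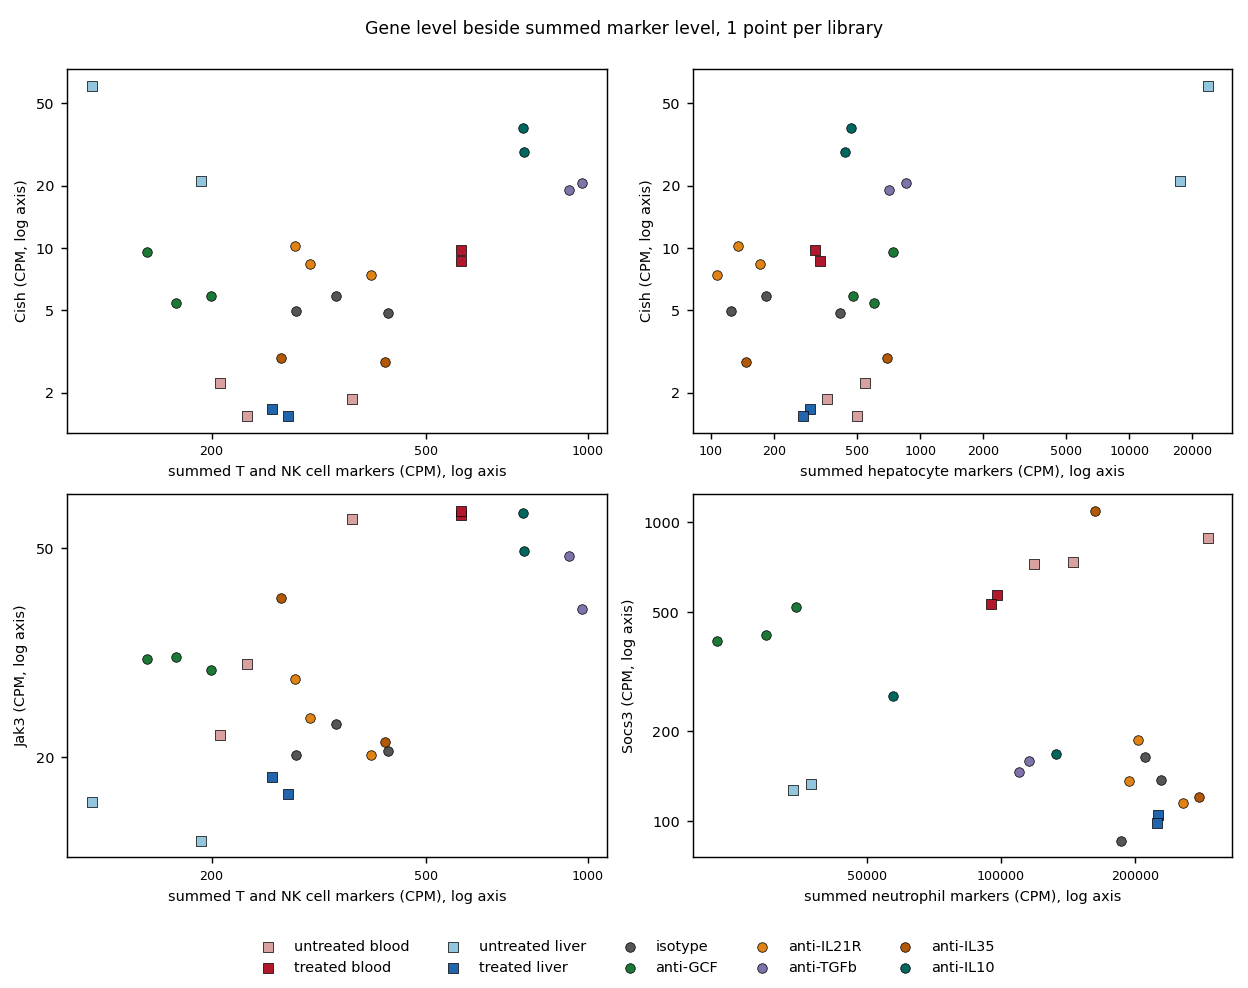
CPM of Cish, Jak3 and Socs3 (vertical, log axis) beside the summed CPM of T and NK cell, hepatocyte or neutrophil markers (horizontal, log axis), 1 point per library, squares for the blood and liver table and circles for the antibody table. Within the antibody table the 4 anti-TGFb and anti-IL10 libraries stand at the highest T and NK cell sums (758 to 976 CPM), with Cish at 19.1 to 37.8 CPM. Within the blood and liver table the 2 untreated liver libraries stand at the highest hepatocyte sums. They also stand at its lowest T and NK cell sums (191 and 120 CPM), with Cish at 21.0 and 60.7 CPM.

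Socs3, the inhibitor of gp130 and G-CSF receptor signalling, was the SOCS gene with the highest level per kilobase of exon in both tables (means of 150 and 94.9 CPM per kb). Its level differed more between the tissues than with treatment. Marker sums differed between the tissues as well, and their part in the Socs3 values was not tested. Socs3 was at 726, 735 and 885 CPM in untreated blood, 571 and 533 CPM in treated blood, 127 and 133 CPM in untreated liver and 105 and 98.4 CPM in treated liver. No 2 of the 4 groups overlapped, and every blood library was above every liver library. Untreated liver was below untreated blood by 2.59 ± 0.17 log2 and treated liver below treated blood by 2.44 ± 0.17 (edgeR adjusted p = 1.68e-06 and 4.32e-05), both called under every alternative.

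Treatment moved Socs3 little beside this. In blood it fell by 0.50 ± 0.15 log2 (edgeR adjusted p = 0.0314), a call lost under 6 of 13 alternatives, among them leaving out untreated blood replicate 2, either treated blood library or the untreated liver group (adjusted p up to 0.22). In liver the log2 fold change was -0.36 ± 0.17, with a 95% interval of -0.73 to 0.02 (edgeR adjusted p = 0.0856). The effects in liver and blood differed by 0.15 log2 with an interval of -0.35 to 0.65 (edgeR adjusted p = 0.598).

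Among the antibody groups, Socs3 was at 85.9, 137 and 164 CPM with isotype and at 418, 522 and 399 CPM with anti-GCF. The groups did not overlap, and the log2 fold change was 1.79 ± 0.57 (edgeR adjusted p = 0.0186). Without isotype replicate 1 the adjusted p was 0.0672, and the fold change stayed between 1.57 and 2.00 over the alternatives. Beside it, neutrophil markers were called lower in 16 of 18 and macrophage markers higher in 13 of 13 genes with anti-GCF. Their part in the Socs3 value was not tested. With anti-IL35 the 2 libraries were at 120 and 1094 CPM, one within the isotype range and the other above all 14 remaining libraries of the table. The fitted log2 fold change of 2.23 ± 0.62 (edgeR adjusted p = 0.0449) rested on that second library, since it was -0.10 without it and the call was also lost without any 1 isotype library. With anti-IL10 Socs3 was at 263 and 168 CPM, above isotype in both libraries but not called (log2 fold change 0.74 ± 0.61, edgeR adjusted p = 0.424). With anti-TGFb it was at 146 and 159 CPM and with anti-IL21R at 115, 187 and 136 CPM, both overlapping isotype.

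Socs1, the inhibitor of interferon and JAK signalling, was low throughout, and its treatment effect differed in direction between the tissues. Socs1 was at 3.40 and 2.14 CPM in untreated liver, 7.19 and 5.13 CPM in treated liver, 10.0, 9.84 and 7.43 CPM in untreated blood and 4.63 and 5.39 CPM in treated blood. Untreated liver was lowest and untreated blood highest, and the 2 treated groups overlapped between them. It rose by 1.15 ± 0.32 log2 in liver and fell by 0.86 ± 0.29 in blood (edgeR adjusted p = 0.00971 and 0.0446). The part of the neutrophil and hepatocyte markers, whose sums also changed in liver, was not tested. The liver value was 0.89 without treated liver replicate 1 (adjusted p = 0.0788), and the blood call was lost under 8 of 13 alternatives, among them leaving out either treated blood library or untreated blood replicate 1 or 2. The difference of these effects, 2.01 ± 0.43 log2 (edgeR adjusted p = 0.00331), was called under every alternative. In the antibody table the isotype libraries themselves were spread, at 6.85, 16.9 and 21.4 CPM. With anti-GCF Socs1 was at 7.36, 7.45 and 8.21 CPM, and its fall by 0.97 ± 0.37 log2 (edgeR adjusted p = 0.0379) was lost without isotype replicate 2 or 3 or any 1 anti-GCF library. The remaining 4 antibody groups lay between 6.39 and 16.2 CPM and were not called.

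Of the kinases, Jak1 and Jak2 were higher in treated than in untreated liver. In this contrast the neutrophil marker sum rose and the hepatocyte marker sum fell. Their part in the liver values of Jak1 and Jak2 was not tested. Jak1, which pairs with gp130, interferon and common gamma chain receptors, was at 215 and 194 CPM in untreated liver and at 519 and 556 CPM in treated liver. Blood was at 621, 649 and 683 CPM untreated and at 560 and 552 CPM treated, so untreated liver alone stood low and treated liver overlapped treated blood. The liver log2 fold change was 1.39 ± 0.16 (edgeR adjusted p = 5.35e-05), the blood value -0.23 ± 0.14 (edgeR adjusted p = 0.239), and their difference 1.62 ± 0.21 (edgeR adjusted p = 0.000246). The liver call and that of the difference were made under every alternative.

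Jak2, the kinase of the growth hormone, GM-CSF and related receptors, rose in both tissues. Jak2 was at 37.7 and 31.4 CPM in untreated liver and at 95.02 and 113 CPM in treated liver, and at 61.4, 69.0 and 76.3 CPM in untreated blood against 161 and 168 CPM in treated blood. None of the 4 groups overlapped, with treated blood highest and untreated liver lowest. The log2 fold changes were 1.59 ± 0.18 in liver and 1.26 ± 0.16 in blood (edgeR adjusted p = 5.16e-05 and 0.000801), both called under every alternative. They differed by 0.33 log2 with a 95% interval of -0.19 to 0.86, which was not called (edgeR adjusted p = 0.253). Treated liver was below treated blood by 0.66 ± 0.17 log2 (edgeR adjusted p = 0.0245), a call lost under RLE scaling and without any 1 of the 4 libraries. Among antibody groups Jak2 ran from 124 to 172 CPM and was called in no comparison (edgeR adjusted p of the test of any difference among the 6 groups = 0.757). That test was passed by 76.4% of all genes and by 6 of the members.

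Jak3, which serves the common gamma chain receptors of lymphoid and myeloid cells, followed blood and 2 of the antibodies. Jak3 was at 13.9 and 16.5 CPM in untreated liver, 18.3 and 17.0 CPM in treated liver, 22.01, 30.0 and 56.8 CPM in untreated blood and 57.9 and 59.0 CPM in treated blood. The high untreated blood library was replicate 3, the one with the high neutrophil marker sum. Treated liver was below treated blood by 1.73 ± 0.37 log2 (edgeR adjusted p = 0.0105), a call lost without any 1 of the 4 libraries, where values ran from -1.78 to -1.30 over the alternatives. Neither treatment effect was called (liver 0.22 ± 0.37, blood 0.69 ± 0.33 log2, edgeR adjusted p = 0.613 and 0.13). Without untreated blood replicate 3 the blood value was 1.17 and was called. Against isotype, at 20.2, 23.1 and 20.5 CPM, Jak3 rose to 58.2 and 49.5 CPM with anti-IL10 and to 48.2 and 38.3 CPM with anti-TGFb. The log2 fold changes were 1.34 ± 0.22 and 1.02 ± 0.22 (edgeR adjusted p = 0.00246 and 0.00484). The anti-TGFb value was 0.85 without anti-TGFb replicate 1 (adjusted p = 0.0644), and the anti-IL10 call was made under every alternative. These are the 4 libraries with the highest T and NK cell marker sums given above, and that part was not tested. With anti-GCF Jak3 was at 29.4, 30.7 and 31.0 CPM, and its log2 fold change of 0.51 ± 0.20 (edgeR adjusted p = 0.043) was lost under 10 of 14 alternatives, including the absence of any 1 of the 6 libraries. With anti-GCF Jak1 was at 506, 428 and 417 CPM against 569, 695 and 591 CPM with isotype. Its fall by 0.46 ± 0.17 log2 (edgeR adjusted p = 0.0335) was lost without isotype replicate 2 or 3 or anti-GCF replicate 2 or 3.

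**Figure D4:**
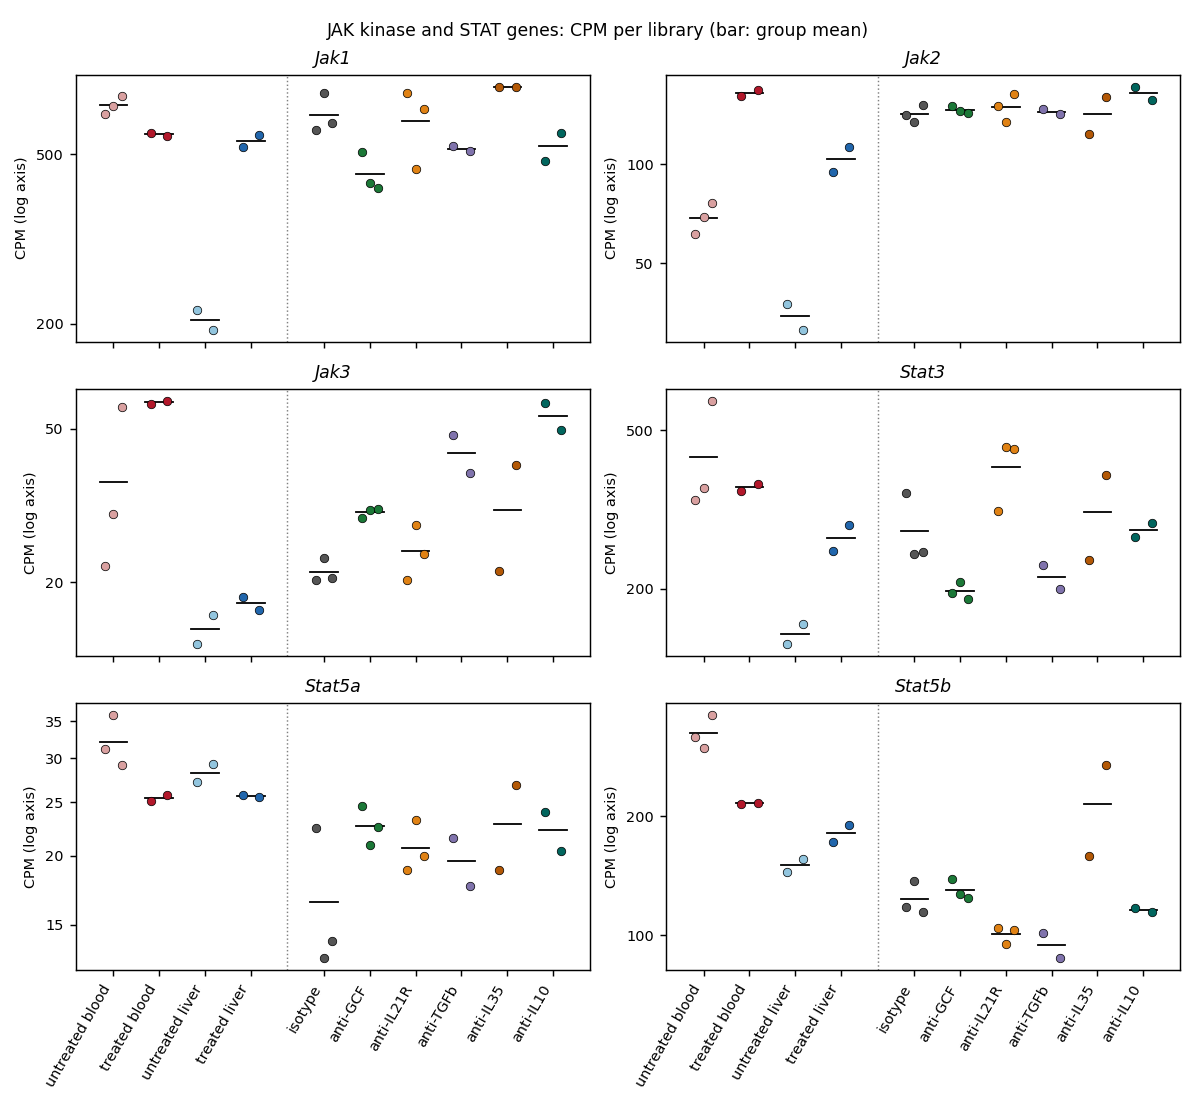
CPM of the 3 JAK kinase genes and 3 STAT genes in each of the 24 libraries (points, log axis) with group means (bars), the 9-library table left of the dotted line. Among the 9 libraries of blood and liver, untreated liver is lowest for Jak1, Jak2, Stat3 and Stat5b, and within each table the group mean of Jak3 is highest in treated blood (57.9 and 59.0 CPM) and with anti-IL10 (58.2 and 49.5 CPM).

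Stat3, the transcription factor of the gp130, G-CSF, interleukin-10 and interleukin-21 receptors, was lowest in untreated liver. Stat3 was at 146 and 163 CPM in untreated liver, 248.6 and 289.5 CPM in treated liver, 334, 359 and 593 CPM in untreated blood and 353 and 366 CPM in treated blood. Liver libraries were below blood libraries throughout, and the high untreated blood library was again replicate 3. Treated liver was above untreated liver by 0.80 ± 0.27 log2 (edgeR adjusted p = 0.0244), a call lost without untreated liver replicate 1 or either treated liver library (0.69 to 1.07 over the libraries left out). The neutrophil and hepatocyte marker sums changed between these liver groups too, and their part was not tested. In blood the log2 fold change was -0.25 ± 0.24 (edgeR adjusted p = 0.446) and 0.05 without replicate 3 of untreated blood. The effects differed by 1.05 ± 0.36 log2 (edgeR adjusted p = 0.0323), a call lost without untreated liver replicate 1, either treated liver or either treated blood library. Untreated liver against untreated blood was -1.47 ± 0.25 log2 (edgeR adjusted p = 0.000684), called under every alternative. Across the antibody groups Stat3 was highest with anti-IL21R, at 314, 454 and 448 CPM against 347, 245 and 248 CPM with isotype. The groups overlapped, and the log2 fold change of 0.53 ± 0.21 did not pass (edgeR adjusted p = 0.146). Stat3 was lowest with anti-GCF, at 195, 208 and 189 CPM, below every isotype library. That log2 fold change was -0.50 ± 0.21 (edgeR adjusted p = 0.0509), and DESeq2 and both other scalings, among others, called it. Among the 6 groups together Stat3 differed (edgeR adjusted p = 0.00639), which without the anti-GCF group was no longer called (adjusted p = 0.12).

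Stat5a had no call in the main fits, and in the blood and liver table it was the member with the narrowest range. It lay between 25.1 and 35.9 CPM in the blood and liver table and between 13.1 and 26.8 CPM in the antibody table. Its treatment effects were -0.14 ± 0.16 log2 in liver and -0.34 ± 0.15 in blood (edgeR adjusted p = 0.476 and 0.109). The blood value was -0.40 and called without untreated blood replicate 3 (adjusted p = 0.0327). Without isotype replicate 1 Stat5a was called higher with anti-GCF, anti-IL21R, anti-IL35 and anti-IL10 (0.61 to 0.75 log2). Its paralog Stat5b, the main STAT5 of growth hormone signalling in liver, was at 145 and 156 CPM in untreated liver, 172 and 190 CPM in treated liver, 316, 297 and 360 CPM in untreated blood and 215 and 216 CPM in treated blood. The 4 groups did not overlap. It fell in blood by 0.59 ± 0.15 log2 (edgeR adjusted p = 0.0145), lost without either treated blood library, and was not called in liver (0.27 ± 0.16, edgeR adjusted p = 0.163). The effects differed by 0.86 ± 0.22 log2 (edgeR adjusted p = 0.00789), called under every alternative. With anti-IL35 Stat5b was at 159 and 269 CPM against 118, 137 and 115 CPM with isotype. The log2 fold change of 0.80 ± 0.19 (edgeR adjusted p = 0.0214) became 0.37 without the second anti-IL35 library (adjusted p = 0.281) and was also lost without isotype replicate 1 or 3. Per kilobase of exon, Stat5b was 6.86 and 6.87 times Stat5a in untreated liver, 8.58 and 9.6 times in treated liver, and 10.7 to 15.9 times in blood. Across the libraries of the antibody table this ratio of levels ran from 5.26 to 13.5. It was 5.26 to 7.1 with anti-IL21R and 6.76 to 13.5 with isotype, so these groups overlapped.

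Ranked by mean level per kilobase, the 10 genes stood in nearly the same order in both tables. In the blood and liver table Socs3 was followed by Jak1 (69.9 CPM per kb), Stat5b (41.4), Stat3 (33.3), Jak2 (18), Jak3 (6.05), Stat5a (3.97), Socs1 (2.11), Cish (1.89) and Socs2 (1.28). The means of the antibody table were 78.5 CPM per kb for Jak1, 29.8 for Stat3, 29.4 for Jak2, 23.0 for Stat5b, 6.02 for Jak3 and 0.387 for Socs2, the lowest. Lengths are those of all annotated exons of a gene together, so a gene whose cells use a short transcript is understated.

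Without treatment, liver and blood differed in 9 of the members. Untreated liver was 73.5-fold above untreated blood for Socs2 and 21.7-fold for Cish (edgeR adjusted p = 9.96e-06 and 1.44e-05). It was below blood for the other 7 that were called, with log2 fold changes of -1.67 ± 0.15 for Jak1, -1.72 ± 0.30 for Socs1 and -1.11 ± 0.15 for Stat5b (edgeR adjusted p = 1.18e-05, 0.000736 and 0.000144). Jak2 was 1.99-fold lower (edgeR adjusted p = 0.000489). Jak3 had a log2 fold change of -1.26 ± 0.35 (edgeR adjusted p = 0.00986), which was -0.78 and still called without untreated blood replicate 3 (adjusted p = 0.00283), while without untreated liver replicate 1 it was -1.28 and not called (adjusted p = 0.0566). Stat5a was not called (-0.19 ± 0.15, edgeR adjusted p = 0.291), except with upper-quartile scaling (-0.41, adjusted p = 0.0322). Untreated liver is the group with the high hepatocyte and low neutrophil marker sums, and the part of either in these differences was not tested.

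The rest of the pathway was counted over lists of receptors, ligands, regulators and targets. A list is described by how many of its tested genes were called. These counts are to be read beside the shares of all genes called, given above for each comparison. For some lists the median is given too, beside the median of all genes. Among 9 tested receptor genes of the gp130, G-CSF, interleukin-10 and interleukin-21 type, 6 rose with treatment in blood and 0 fell, with a median of 0.97 log2 against 0.04 for all genes. Il21r, the interleukin-21 receptor, had means of 15.4 CPM in treated and 3.54 CPM in untreated blood, and Il6st, which encodes gp130, 17.8 and 9.08 CPM. Without treated blood replicate 2 or 3 this count was 2 or 1. In treated liver against treated blood, 7 of these 9 were lower and 0 higher, with a median of -1.14 log2 against 0.00 for all genes. Csf3r, the G-CSF receptor and a neutrophil marker of the list above, had means of 2040 CPM in treated liver and 4500 CPM in treated blood, and Il6ra 182 and 342 CPM. Without treated liver replicate 1 the count was 3, and without treated blood replicate 2 or 3 it was 4. In treated against untreated liver 2 of the 9 rose and 4 fell, not far from the shares of all genes (27.8% and 36.3%). Those that fell included Lifr (means of 1.60 and 21.7 CPM) and Il11ra1 (1.19 and 14.8 CPM), receptors of LIF and interleukin-11. The hepatocyte marker sum fell beside them, and its part was not tested.

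With anti-GCF, 8 of 12 receptors of this list rose and 0 fell (median 0.93 log2 against 0.11 for all genes). Il6ra went from a mean of 112 to 210 CPM and Il21r from 18.5 to 35.8 CPM. Of the 16 further negative regulators tested, 7 rose and 4 fell with anti-GCF, where 31.6% and 26.3% of all genes did. Without isotype replicate 1 or 3 or anti-GCF replicate 1, 4 of them rose. Macrophage markers rose beside both lists, and their part was not tested. With anti-IL35, Il6ra rose by 1.17 ± 0.22 log2 and Il10rb by 0.96 ± 0.22 (edgeR adjusted p = 0.00844 and 0.0199). Both calls were lost without the second anti-IL35 library and in a fit of only the groups compared, where 0 of 12 receptors of this list were called higher.

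Among 16 receptor genes of the common gamma chain and STAT5 type, 6 rose and 2 fell with anti-TGFb, and 5 rose and 1 fell with anti-IL10. The medians were 0.43 and 0.85 log2, against 0.01 and 0.03 for all genes. Il2rb rose by 3.35 ± 0.27 log2 in both (edgeR adjusted p = 1.03e-05 and 2.49e-05). Il2ra, the high-affinity interleukin-2 receptor chain and itself a STAT5 target, had means of 1.48 CPM with isotype, 12.7 CPM with anti-TGFb and 10.9 CPM with anti-IL10. Il2rg, the common gamma chain, had means of 32.5, 72.2 and 83.8 CPM in the same groups. The anti-IL10 count was 3 without isotype replicate 2 and 2 without anti-IL10 replicate 1. Ghr, at means of 2.36 CPM with isotype and 23.3 CPM with anti-TGFb, rose with the hepatocyte markers.

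Many genes listed as STAT3 targets were higher in treated than in untreated liver. Of 25 tested, 15 rose and 0 fell in treated against untreated liver, with a median of 0.90 log2 against -0.29 for all genes. Tnfaip3, an inhibitor of NF-κB signalling, had means of 25.2 and 94.1 CPM in untreated and treated liver. Socs3, a STAT target that is not on this list, did not rise there. Its log2 fold change was -0.36 ± 0.17 and was not called (edgeR adjusted p = 0.0856). In treated against untreated blood 1 rose and 11 fell (median -0.69 against 0.04 log2). Cebpd, a STAT3-induced transcription factor, fell from a mean of 503 to 201 CPM. Without treated blood replicate 2 or 3 the number that fell was 2, and without untreated blood replicate 3 it was 13, with 7 that rose. The interaction term was called higher for 15 of the 25 and lower for 0, beside 23.3% and 31.4% of all genes. Of the 25 genes, 6 (Il1r2, Lcn2, Mmp8, Mmp9, S100a8 and S100a9) are also on the neutrophil marker list, whose sum rose in treated liver. The part of neutrophil content in these counts was not tested.

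With the antibodies, 12 STAT3 targets fell and 4 rose with anti-GCF (median -0.40 against 0.11 log2), with Il1r2, a decoy receptor for interleukin-1, at means of 217 against 2960 CPM and S100a8 at 5310 against 38700 CPM. The neutrophil marker sum fell with them. With anti-TGFb 6 fell and 1 rose, and with anti-IL10 5 fell and 0 rose. The shares of all genes lower and higher were 10% and 17.5% with anti-TGFb and 6.98% and 10.6% with anti-IL10. Cebpb, a transcription factor of emergency neutrophil production, went from a mean of 676 CPM with isotype to 284 CPM with anti-TGFb and 269 CPM with anti-IL10. The number that fell was 2 without either anti-TGFb library and 0 without anti-IL10 replicate 1. With anti-IL35 5 rose and 2 fell, led by Fos (means of 11800 against 1120 CPM) and Zfp36 (17800 against 2810 CPM), and 1 rose without the second anti-IL35 library, 13 without the first and 2 without isotype replicate 1 or 3.

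Of the genes known as STAT5 targets, 7 of 13 rose and 1 fell with anti-TGFb, 4 rose and 0 fell with anti-IL10, and 6 rose and 2 fell with anti-GCF. The shares of all genes were 17.5% and 10%, 10.6% and 6.98%, and 31.6% and 26.3% in the same order. Beside Socs2 and Cish, which are not on this list, Ccnd2, a cyclin that drives entry into the cell cycle, rose from a mean of 14.6 CPM with isotype to 45.7 CPM with anti-TGFb and 41.2 CPM with anti-IL10. Pim2, a survival kinase, had means of 6.54, 14.2 and 13.1 CPM. The anti-TGFb count was 4 and 3 without its first and second library, and the anti-IL10 count 1 without its replicate 1. In treated against untreated liver Ccnd1 fell from a mean of 78.0 to 0.224 CPM, and Osm, Bcl6 and Pim1 rose by 3.75 ± 0.37, 1.49 ± 0.18 and 1.38 ± 0.20 log2 (edgeR adjusted p = 2.86e-05, 9.73e-05 and 0.000277). In this contrast, in which Socs2 and Cish fell, 4 of 12 tested STAT5 targets rose and 4 fell, close to the shares of all genes called (27.8% higher and 36.3% lower).

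Likeness of pattern was measured as the root mean square difference of log2 CPM, centred within each table, over all 24 libraries and about 6080 genes with at least 10 CPM on average in each table. The genes most like Socs3 were Il1b (0.38 log2), Pla2g7 (0.39) and Marcks (0.39), beside a standard deviation of Socs3 itself of 1.10. Those most like Socs2 were Lap3 (0.58), Fasn (0.59) and Adi1 (0.69), beside 1.82. Those most like Cish were Rora (0.60), Ly6a (0.68) and Ide (0.78), beside 1.41. Those most like Socs1 were Ing1 (0.36), Zfp36l2 (0.37) and Akap8l (0.37), beside 0.57, so the likeness of the last group is not far below the spread of the gene. Among the 10 members the nearest gene to Cish was Socs2 and the reverse (0.87), and the nearest to Jak1 was Stat3 (0.36).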

How the data were processed

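Poly(A) RNA of 24 neutrophil libraries was sequenced with a stranded kit, per the labels' protocols. Per the submitters' processing notes, STAR 2.5.3a, Bowtie2 2.2.5, Partek and DESeq2 were used with the mm10 build, in roles not given in the sources used here, as are the counter, its annotation and its strand setting. The authors deposited the 9-library blood and liver table as estimated counts per gene, 44.4% of them not whole, made in a way not stated, and these were rounded here. The 15-library antibody table as deposited holds whole-number counts. No values are normalized by the authors in these tables.

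Each table was fitted as a whole with edgeR 4.0.16 (R 4.3.3, limma 3.58.1), with its low-count filter by group, TMM scaling and a robust quasi-likelihood test on group alone. This left 16719 and 16812 genes, over which p-values were Benjamini-Hochberg adjusted at 0.05. SE is the log2 fold change over the root of F, and intervals are 95%. DESeq2 1.42.0 was an alternative. The other alternatives were RLE and upper-quartile scaling, no filter, fits of only the groups compared, replicate blocks and leaving out each library. A further 3 were chosen after seeing the data, namely the fits without untreated liver, without anti-GCF and without the second anti-IL35 library. The fits were tested on simulated data in which few genes changed, as many raised as lowered. That setting does not cover contrasts in which most genes were called, such as treated against untreated liver.

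The members, gene lists and marker lists were chosen with earlier results of these data known. A further list of target genes is not reported here. Named genes are all 10 members and, of each pathway list and comparison, up to 4 genes with the smallest adjusted p and a group mean of at least 10 CPM, from which the text takes examples. Marker genes and receptors named for their known link to a member were picked after their values were seen. The 3 genes most like each SOCS gene were taken by the distance given in the text, with a prior count of 2. CPM depends on the scaling. Within the blood and liver table RLE scaling moved a library by -0.06 to 0.08 log2 and upper-quartile scaling by -0.26 to 0.09.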

Additional observations from a re-analysis of the deposited data

Results flagged for a closer look

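For 6 of the 10 genes the treatment effect in liver differed from that in blood by the interaction test of edgeR (adjusted p below 0.05). The liver effect minus the blood effect was -9.004 log2 for Socs2, -6.966 for Cish, 2.014 for Socs1, 1.621 for Jak1, 1.052 for Stat3 and 0.858 for Stat5b. The effects ran in opposite directions past the threshold for Socs2 and Cish (lower in liver, higher in blood) and for Socs1 (higher in liver, lower in blood). For Jak1 and Stat3 the liver effect alone passed, and for Stat5b the blood effect alone. Over all genes tested this term was called for 54.7%. Without the untreated liver group no such term can be formed, and hepatocyte markers in that group summed to 17470 and 23710 CPM against at most 546 CPM in the other 7 libraries. Their part in these differences was not tested.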

How the results depend on the processing

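Of 51 called results of the members, 31 kept their direction and their side of the threshold under every alternative and 20 lost the call under at least 1. Of 59 without a call, 22 were called under at least 1. Leaving out 1 library gave 2 to 3 called members for treated liver against treated blood (5 with all libraries), 2 to 8 for treated against untreated blood (6), 2 to 4 for anti-GCF (5), 0 to 3 for anti-IL35 (2) and 0 to 3 for anti-IL21R (0). Anti-IL35 gave 1 without the filter, 0 in a fit of only the groups compared and 1 without anti-GCF, and DESeq2 gave 1 for anti-IL21R. The cause was not tested.

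Same-numbered libraries did not deviate together in the blood and liver table (r from -0.071 to 0.072, 0 of 10 pairs over 0.1). In the antibody table r ran from -0.305 to 0.287, with 10 of 33 pairs over 0.1. Among these were both pairs of isotype with anti-TGFb (0.252 and 0.244) and with anti-IL35 (0.287 and 0.261) and 2 of 3 with anti-GCF (0.197 and 0.22, the third 0.04). Where a group holds 2 libraries, their deviations from the group mean mirror each other, so its pairs are not independent. These values cannot decide whether same-numbered libraries belong together. The main fits used group alone, and replicate blocks were fitted as alternatives. With a replicate block by title number the members called were 3 for anti-GCF and 0 for anti-IL35, and with a block by library-name number 1 for anti-IL35. Under a block Jak3 in treated against untreated liver was -0.207, Stat5a in treated liver against treated blood -0.011, Stat3 with anti-IL10 -0.012 and Jak2 with anti-IL35 0.029.

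Reversed signs occurred in uncalled values and in 1 called value, and not all of the uncalled values were near 0 in the main fit. Socs1 with anti-IL35 was -0.415 there. Stat3 in treated against untreated blood was -0.253, and Jak3 in treated against untreated liver 0.22. Jak1 in treated liver against treated blood was 0.027 with RLE scaling and with DESeq2. Stat5a was 0.138 with upper-quartile scaling and 0.05 with only the groups compared in treated against untreated liver, and -0.007 with upper-quartile scaling in treated liver against treated blood. Jak2 with anti-GCF was -0.055 with RLE and DESeq2, -0.092 with upper-quartile scaling and -0.014 with only the groups compared. Stat5b with anti-GCF was -0.016, -0.049 and -0.016 with RLE, upper-quartile scaling and DESeq2. Jak2 with anti-TGFb was -0.009 with RLE and DESeq2 and 0 with upper-quartile scaling. Stat3 with anti-IL10 was -0.036 with RLE and DESeq2.

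With 1 library left out, the called Socs3 value with anti-IL35 ran from -0.102 to 3.082. The uncalled values ran as follows. With anti-IL35 Socs1 was -1.237 to 0.108, Jak2 -0.201 to 0.168 and Stat3 -0.243 to 0.462. With anti-IL21R Jak1 was -0.168 to 0.108 and Socs3 -0.047 to 0.387. Jak2 was -0.003 to 0.081 with anti-GCF and -0.019 to 0.064 with anti-TGFb, and Stat3 -0.081 to 0.193 with anti-IL10. Stat3 in treated against untreated blood was -0.404 to 0.054, and Stat5a was -0.143 to 0.103 in treated against untreated liver and -0.009 to 0.032 in treated liver against treated blood.

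The number of all genes called moved by over 1.5 times for several comparisons. It was 3568 for treated liver against treated blood and 8221 with only the groups compared, 375 for anti-IL21R and 1543 with DESeq2, 59 with a block by title number and 41 with only the groups compared, and 1568 for anti-IL35 and 663 and 0 with the latter 2. With 1 library left out it ran from 2 to 2126 for anti-IL21R, 210 to 3629 for anti-IL35, 290 to 3328 for anti-IL10 (2961), 1632 to 4317 for anti-TGFb (4635), 1758 to 7190 for treated against untreated blood (5620) and 1461 to 1605 for treated liver against treated blood. For anti-IL35 the split of all calls was 809 higher and 759 lower, and 475 and 902 with upper-quartile scaling. For anti-IL21R it was 181 and 194, 232 and 162 with RLE, and 109 and 218 with upper-quartile scaling. Groups of 2 libraries and the 7 to 46 counts behind Socs2 in treated liver and untreated blood limit its precision there.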
